A study of Mus musculus with 2 samples.

Results

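The miR-221 and miR-222 pair and the miR-181 family were examined in exosomes, small membrane vesicles shed here by mesenchymal stem cells from mouse bone marrow (mBMSCs, stromal cells that can form bone, fat and cartilage). The members were picked by name: both arms of miR-221 and miR-222 and the 5p arms of miR-181a to miR-181d, which gave 8 of the 1881 mouse miRNAs on the array. The mBMSCs came from C57BL/6 mice through a commercial supplier and were grown in MEM with 10% exosome-depleted serum. For the hypoxia group they were kept at 0.2% oxygen in a hypoxic workstation, and the normoxia group was handled the same way without the low oxygen. Medium was collected after 72 h in both groups, and the exosomes were isolated by centrifugation, filtration and polymer precipitation. The RNA of each group, carrying the dye Cy3, went onto 1 Agilent array, so no spread between cultures can be computed, no test was run and each difference has no replicate check. Every SD and SE below is over spots of a probe inside an array and leaves out cultures, isolations and labellings.

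miRNAs are short RNAs that guide Argonaute proteins to messenger RNAs. Pairing runs mainly through the seed, bases 2 to 8 counted from the 5′ end, so family members with the same seed share most of their predicted targets. miR-221 and miR-222 come from neighbouring genes and are best known as repressors of the cell cycle inhibitor p27 and of the receptor Kit, in tumours, blood vessels and blood cell precursors. The miR-181 family is known from lymphocyte development, where miR-181a tunes the sensitivity of T cell receptor signalling. Each hairpin holds a 5p and a 3p arm, and usually 1 of them is loaded and kept while the other is degraded.

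The mature sequences are printed because the seed defines each family and the bases after it tell the members apart. They are from RefSeq (GRCm38.p6), 5′ to 3′, with the seed in capitals, and 7 of the 8 members matched an entry, all but miR-222-5p.
mmu-miR-221-3p: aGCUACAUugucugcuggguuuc
mmu-miR-222-3p: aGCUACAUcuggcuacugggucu
mmu-miR-221-5p: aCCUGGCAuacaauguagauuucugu
mmu-miR-181a-5p: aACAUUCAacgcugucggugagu
mmu-miR-181b-5p: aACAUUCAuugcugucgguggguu
mmu-miR-181c-5p: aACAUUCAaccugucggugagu
mmu-miR-181d-5p: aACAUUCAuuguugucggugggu

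miR-221-3p and miR-222-3p shared their first 8 bases and were 5 single-base edits apart over their full length. The miR-181 arms split into closer pairs, since miR-181a-5p and miR-181c-5p were 1 edit apart and miR-181b-5p and miR-181d-5p were 2 edits apart. The latter pair has the substitution C12U, with the miR-181b-5p base first and positions counted from the 5′ end. miR-181a-5p was 4 edits from miR-181b-5p and from miR-181d-5p. The files hold no probe sequences, so how well a probe separates such close relatives was not tested. 1 further array miRNA, miR-1928, has the seed of miR-221-3p and miR-222-3p (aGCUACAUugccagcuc), and 0 further array miRNAs have the miR-181 seed.

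In GRCm38.p6, Mir221 lies on the minus strand at chrX:19146294-19146388 and Mir222 at chrX:19146893-19146971, with 504 bases between them. Neither overlaps another annotated gene. The Mir221 hairpin is shown to place both arms of a transcript of which only 1 arm gave signal on these arrays. The 3p arm, bases 60 to 82 of 95, is in capitals.
Mir221 hairpin: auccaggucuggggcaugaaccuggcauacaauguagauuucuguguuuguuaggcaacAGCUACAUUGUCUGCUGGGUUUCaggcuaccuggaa

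The miR-181 arms come from 3 gene pairs. Mir181a-1 and Mir181b-1 lie 97 bases apart at chr1:137966455-137966541 and chr1:137966639-137966718. Mir181a-2 and Mir181b-2 lie 1019 bases apart at chr2:38852735-38852810 and chr2:38853830-38853918, inside the protein-coding gene Nr6a1 and the non-coding Nr6a1os. Mir181d and Mir181c lie 85 bases apart at chr8:84178716-84178787 and chr8:84178873-84178961. Mature miR-181a-5p and miR-181b-5p can each come from either of their genes, so an array signal would not tell the loci apart.

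Detection required that the scanner software placed over 50% of the spots of at least 1 probe well above background. On that rule miR-221-3p and miR-222-3p were detected on both arrays, miR-181d-5p only on the hypoxia array, and 5 members on neither array. In normoxia 2 of the 8 members were detected (25%), beside 12% of all 1881 miRNAs. In hypoxia 3 of the 8 were detected (37.5%), beside 10.6% of all miRNAs. The call in hypoxia only, held by 1 member, was made for 1.01% of all miRNAs. The 8 members had 17 probes and 240 spots on each array, of which 6 spots in normoxia and 7 in hypoxia were left out as outliers, and none was saturated.

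Across the 180 miRNAs detected on both arrays, 18.3% were higher in hypoxia by 2-fold or more and 10% lower by as much after quantile normalization, which gives both arrays the same distribution of probe signals. Neither miR-221-3p nor miR-222-3p was 2-fold apart in either direction. Their log2 differences, hypoxia minus normoxia, had a median of 0.18, beside a median of 0.17 and an SD of 1.20 over all 180. In this array data more or fewer vesicles and more or less RNA per vesicle cannot be told apart, because arrays count no vesicles. The normalization also levels the amount of RNA on each array.

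miR-221-3p is the member with the seed GCUACAU that names the family together with miR-222-3p. Its first probe had a processed signal of 628 ± 28.5 in normoxia (SD, n = 12 spots, lowest 573, median 623, highest 677). The same probe read 522 ± 65.9 in hypoxia (SD, n = 15 spots, lowest 385, median 547, highest 610). The kept spots overlapped between 573 and 610, and before normalization 12 of the 15 hypoxia spots lay below all 12 kept normoxia spots. The normoxia spots of this probe left out as outliers read 478, 507 and 705, while all 15 hypoxia spots were kept. This separation therefore depends on the outlier filter. The second probe of miR-221-3p read 291 ± 43.8 in normoxia (SD, n = 15, lowest 210, median 305, highest 356). It read 257 ± 41.7 in hypoxia (SD, n = 15, lowest 165, median 271, highest 318), and the ranges of the arrays overlapped over most of their length.

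miR-222-3p, transcribed beside it, gave smaller gaps between the arrays. Its first probe read 266 ± 13.3 in normoxia (SD, n = 13, lowest 242, median 265, highest 284). In hypoxia this probe read 252 ± 40.1 (SD, n = 15, lowest 170, median 262, highest 299), so the hypoxia spots spanned the whole normoxia range. The second probe of miR-222-3p read 173 ± 14.8 in normoxia (SD, n = 15, lowest 153, median 173, highest 198). It read 178 ± 20.6 in hypoxia (SD, n = 14, lowest 135, median 180.6, highest 221.8), again around the normoxia range. All kept spots of both miRNAs were well above background on both arrays.

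**Figure D1:**
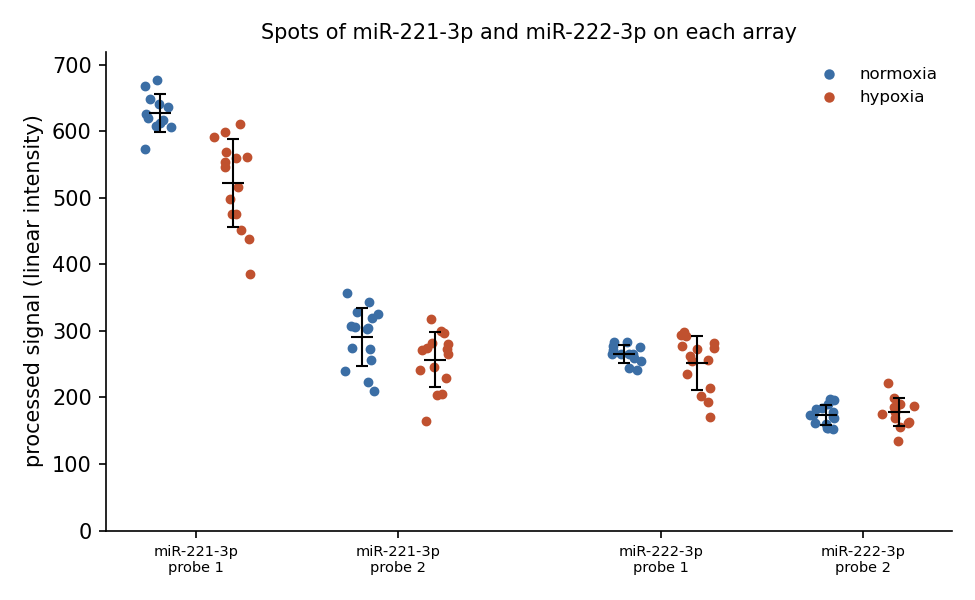
Processed signal (linear intensity) of each kept spot for the 2 probes of miR-221-3p and of miR-222-3p, in normoxia (blue) and hypoxia (red); black marks are the mean ± SD over spots. The spot ranges of the arrays overlap for every probe. The hypoxia spots of the first miR-221-3p probe (522 ± 65.9) lie mostly below the normoxia spots kept after the outlier filter (628 ± 28.5).

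The kept hypoxia spots scattered more. The coefficient of variation over spots rose from 4.54% to 12.6% for the first probe of miR-221-3p and from 5.00% to 15.9% for the first probe of miR-222-3p. For the second probes it was 15.03% and 16.3% for miR-221-3p, and 8.54% and 11.6% for miR-222-3p. The normoxia values of the first probes leave out outlier spots at 478, 507 and 705 for miR-221-3p and at 177 and 187 for miR-222-3p. All 15 hypoxia spots of both first probes were kept, whereas a hypoxia spot at 44.7 was left out for the second probe of miR-222-3p. How much of the rise comes from this filter was not tested. The scanner software gave a median coefficient of 9.68% for the normoxia array and 15.8% for the hypoxia array, and marked the latter for evaluation. The part of this scatter in the differences was not tested.

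After normalization miR-221-3p stood 0.077 ± 0.048 higher in hypoxia on the log2 scale (SE over spots), a fold of 1.06. Of its probes, the second gave 0.15 ± 0.082 and the first gave 0 ± 0.051 (SE over spots), the exact 0 arising because the first held the same rank on both arrays. Without normalization the difference of miR-221-3p was -0.22, and it was -0.10 after scaling to the hybridization spike-ins, so these arrays give no direction for miR-221-3p. Only 12 of the 180 miRNAs had a smaller difference in either direction.

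miR-222-3p stood 0.28 ± 0.042 higher in hypoxia on the log2 scale (SE over spots), a fold of 1.22, but stood at -0.019 without normalization. Its probes gave 0.41 ± 0.055 and 0.15 ± 0.063 (SE over spots). Of the 180 miRNAs, 49 had a smaller difference in either direction. Measured against the median of the 180, miR-222-3p was 0.11 above it and miR-221-3p was at -0.09. Under each scaling that divides an array by a single factor, and without any, miR-222-3p was 0.25 above that median and miR-221-3p 0.05 above it.

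**Figure D2:**
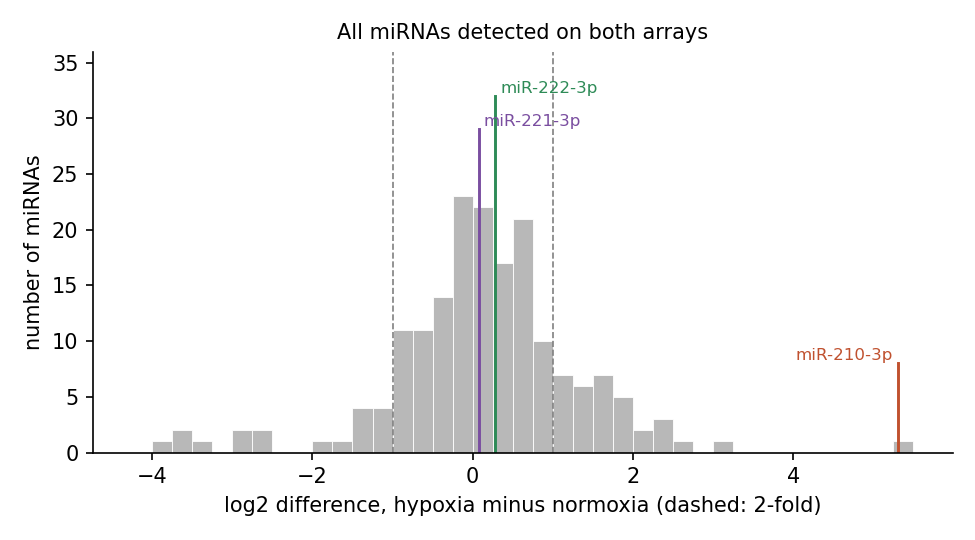
Number of miRNAs (vertical axis) by log2 difference, hypoxia minus normoxia after quantile normalization (horizontal axis), for the 180 miRNAs detected on both arrays; coloured lines mark miR-221-3p, miR-222-3p and miR-210-3p, and dashed lines mark 2-fold. miR-221-3p (0.077) and miR-222-3p (0.28) lie in the middle of the distribution, and miR-210-3p (5.30) at its far right.

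A factor that scales a whole array cancels when both miRNAs are compared with each other. The log2 difference of miR-222-3p exceeded that of miR-221-3p by 0.20 ± 0.064 (SE over spots) after quantile normalization and by 0.20 without normalization. After quantile normalization the single probes did not separate them, because the second probe of miR-221-3p and the first of miR-222-3p both stood at 0.15. In those normalized values the gap of 0.20 between the 2 miRNAs lay between the gaps separating the probes of each. Those were 0.15 for miR-221-3p and 0.27 for miR-222-3p. Without normalization the single probes did separate them, with miR-221-3p at -0.27 and -0.18 and miR-222-3p at -0.076 and 0.037.

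**Figure D3:**
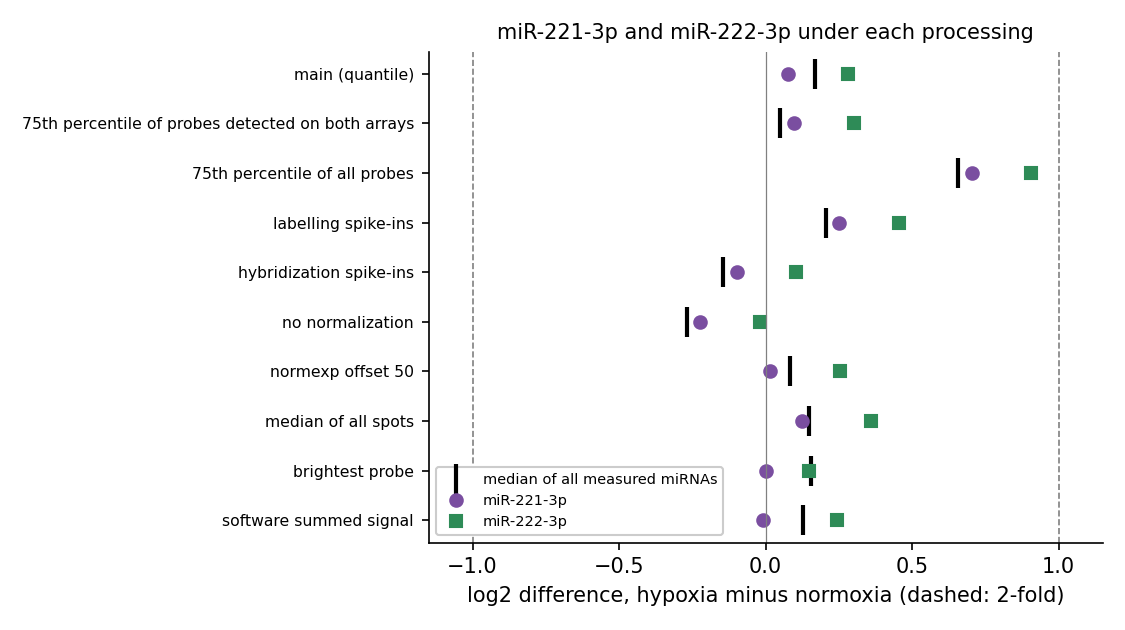
Log2 difference, hypoxia minus normoxia (horizontal axis), of miR-221-3p (circles), miR-222-3p (squares) and the median of all measured miRNAs (black bars) under 10 ways of processing the same arrays; dashed lines mark 2-fold. Both miRNAs move with the median, from -0.22 and -0.019 without normalization to 0.70 and 0.91 with the 75th percentile of all probes, and never reach 2-fold.

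The other arms of these hairpins were not detected. The probes of miR-221-5p had mean signals of 0.62 and -0.18 in normoxia and of 1.21 and 0.22 in hypoxia. The probes of miR-222-5p had means of 7.56, 1.99 and 0.55 in normoxia and of 5.59, 4.31 and -0.57 in hypoxia. No spot of either 5p arm was well above background on either array. For comparison, the negative control spots averaged 4.28 ± 3.10 in normoxia (SD, n = 964) and 4.28 ± 3.52 in hypoxia (SD, n = 979), with 0 and 4 of them well above background. Against miRNA probes without any spot above background on either array, whose 95th percentiles were 3.56 in normoxia and 2.48 in hypoxia, both miR-221-5p probes lay below. The brightest miR-222-5p probe lay above these percentiles on both arrays, and the next did so in hypoxia. miR-1928, which carries the seed of the 3p arms, was not detected on either array.

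miR-181a-5p, the member known from T cell development, read -0.80 ± 2.68 and 1.495 ± 3.41 in normoxia (SD, n = 15 for each probe). It read -0.86 ± 2.66 and -1.69 ± 2.42 in hypoxia (SD, n = 13 for each probe), and no spot was well above background. The miR-181b-5p probes averaged -1.49 and 3.23 in normoxia and 0.014 and 2.12 in hypoxia. A single hypoxia spot of miR-181b-5p was well above background at 19.2, while the other 14 spots of that probe averaged -1.35 ± 3.35 (SD) with a highest of 5.45. These means lay within the range of probes without any spot above background, whose 5th to 95th percentiles ran from -3.01 to 3.56 in normoxia and from -3.67 to 2.48 in hypoxia (n = 3881 probes).

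miR-181c-5p was brighter than that range in normoxia. Its first probe read 15.1 ± 3.56 there (SD, n = 15, lowest 7.73, median 14.9, highest 20.7), with 7 of 15 spots well above background, just short of the detection rule at 46.7%. In hypoxia the probe read 7.52 ± 3.86 (SD, n = 15, lowest 2.38, median 5.68, highest 14.6), with 0 spots above. The arrays overlapped between 7.73 and 14.6, 9 of the 15 normoxia spots lay above all hypoxia spots, and 8 of 15 hypoxia spots lay below all normoxia spots.

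The second probe of miR-181c-5p gave a similar gap, from 9.62 ± 3.41 in normoxia to 1.85 ± 3.97 in hypoxia (SD, n = 15 each), with no spot well above background and 13 of the hypoxia spots below all normoxia spots. The unnormalized differences, hypoxia minus normoxia, were -7.59 ± 1.36 and -7.77 ± 1.35 intensity units (SE over spots). The normalized means of the probes were also lower in hypoxia, at 9.53 against 12.6 and at 2.34 against 7.996. Calculated over odd and over even spots apart, the differences were -8.30 and -6.78 for the first probe and -11.6 and -3.40 for the second. Some probes of similar normoxia signal moved as far elsewhere on these arrays. The 230 probes with a normoxia mean of 5 to 20 that were not detected on both arrays had a median difference of -3.25 and 5th to 95th percentiles of -11.3 to 15.9. The 3881 mostly dimmer probes without any spot above background on either array include the second miR-181c-5p probe. Their 5th to 95th percentiles ran from -3.31 to 1.68, and both miR-181c-5p differences lay outside that range. miR-181c-5p was not detected on either array by the rule used here, so no fold is given, whereas the software's own call per miRNA listed it as detected in normoxia.

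miR-181d-5p, encoded 85 bases from it, went the other way on its first probe. That probe read 12.9 ± 4.67 in normoxia (SD, n = 15, lowest 7.14, median 11.9, highest 25.5), with 3 of 15 spots well above background. It read 17.0 ± 4.63 in hypoxia (SD, n = 14, lowest 9.94, median 17.3, highest 26.9), with 9 of 14 spots above, or 64.3%. The spots of the arrays overlapped across most of their range, from 9.94 to 25.5.

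The second probe of miR-181d-5p read 5.51 ± 2.97 in normoxia (SD, n = 15) and 7.31 ± 2.95 in hypoxia (SD, n = 14), with no spot above background. The unnormalized differences were 4.10 ± 1.73 and 1.80 ± 1.099 intensity units (SE over spots), and over odd and even spots they were 1.60 and 6.86 for the first probe and 2.60 and 0.91 for the second. Both lay within the -11.3 to 15.9 of the 230 probes above. Against 1.68, the 95th percentile of the 3881 mostly dimmer probes, the 4.10 of the first probe lay above and the 1.80 of the second just above. Quantile normalization moved the means of the first probe to 10.5 in normoxia and 20.6 in hypoxia. After that step the lowest detected signal of the normoxia array was 12.0. Set against it, the normalized signal of miR-181d-5p was at least 1.72-fold higher in hypoxia, a log2 bound of 0.78. This bound depends on the scaling and fell to 0.23 without normalization. Quantile normalization moved the lowest detected signal from 14.5 to 12.0 in normoxia and from 13.5 to 16.1 in hypoxia. Part of the bound therefore comes from that step. The software's own call listed miR-181d-5p as detected on both arrays, and its summed signal, quantile-normalized, gave a log2 difference of 0.75, slightly under that bound. When every spot had to be above background, miR-181d-5p was no longer detected.

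**Figure D4:**
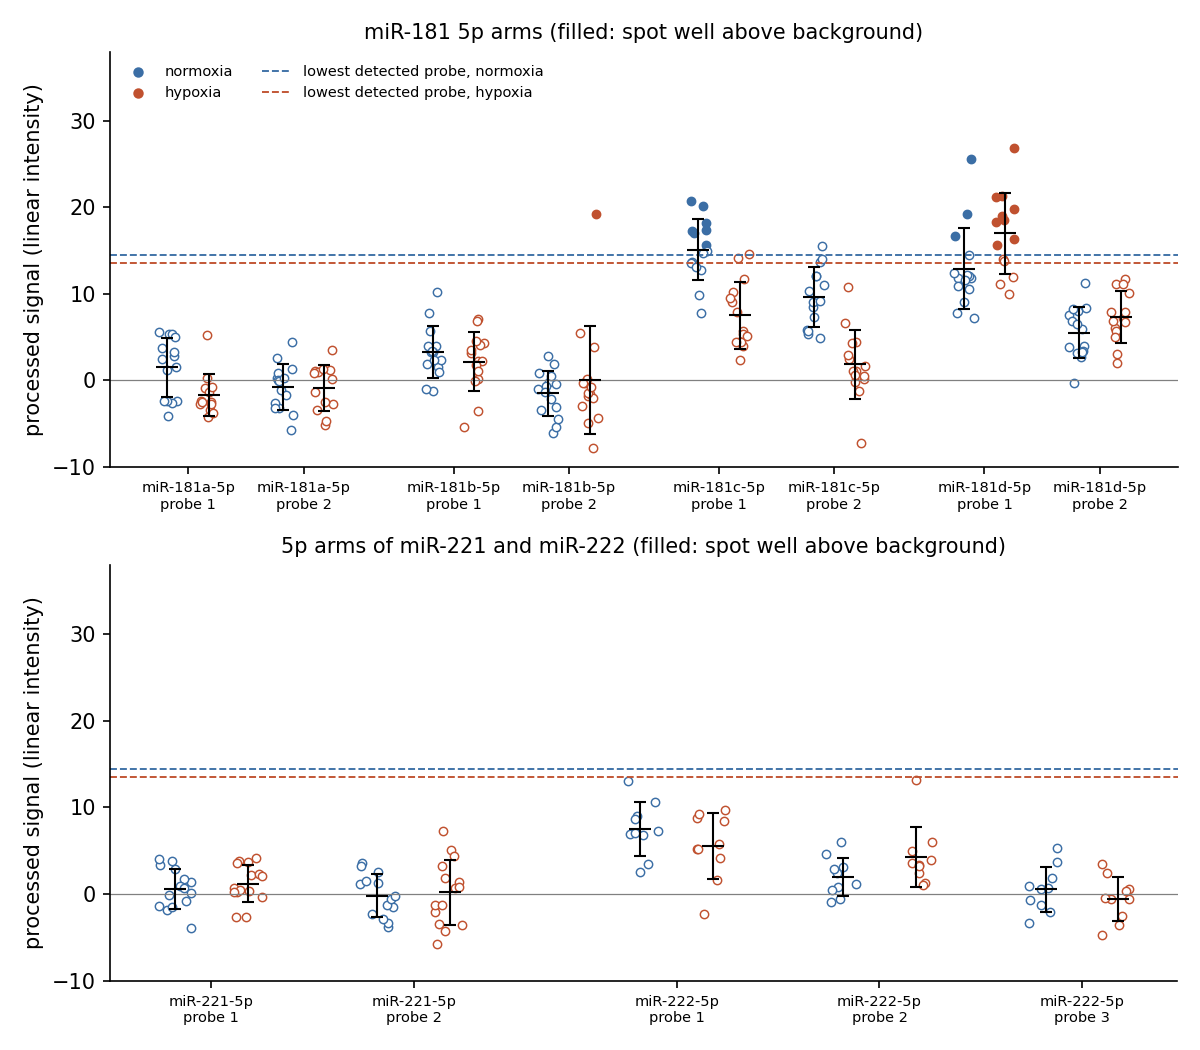
Processed signal (linear intensity, which can fall below 0 after background subtraction) of each kept spot for the miR-181 5p arms (upper panel) and the 5p arms of miR-221 and miR-222 (lower panel), in normoxia (blue) and hypoxia (red); filled points are spots well above background, black marks are the mean ± SD over spots, and dashed lines mark the dimmest detected probe of each array (14.5 and 13.5). Filled points occur for miR-181c-5p in normoxia, miR-181d-5p on both arrays and 1 hypoxia spot of miR-181b-5p.

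The 6 opposite arms of the miR-181 hairpins on the array (miR-181a-1-3p, miR-181a-2-3p, miR-181b-1-3p, miR-181b-2-3p, miR-181c-3p and miR-181d-3p) had 14 probes. None was detected on either array, and 0 of their spots were well above background. Apart from the single miR-181b-5p spot, all miR-181 spots well above background were thus those of miR-181c-5p and miR-181d-5p, the 5p arms of the chromosome 8 genes, on probes close to the detection limit.

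Other conserved miRNA groups give the scale of these differences. The miR-23/27/24 clusters had 5 of 5 members detected on both arrays with a median log2 difference of 0.21, from -0.24 for miR-24-3p to 0.60 for miR-27b-3p. The miR-29 family had 3 of 3 detected with a median of -0.04, from -0.57 for miR-29b-3p to 0.08 for miR-29a-3p. As for miR-221-3p and miR-222-3p, 0 of these miRNAs were 2-fold apart. The values of miR-221-3p and miR-222-3p lay inside the range of the miR-23/27/24 clusters and above that of the miR-29 family. Even so, miR-29a-3p (0.076) and miR-221-3p (0.077) stood side by side. The hypoxia-induced miR-210-3p stood at 5.30 ± 0.035 (SE over spots) on the same arrays. The miRNAs closest to the median of miR-221-3p and miR-222-3p of 0.18 were miR-3104-5p at 0.18, miR-199a-5p at 0.17 and miR-362-3p at 0.17, a likeness that rests on 2 arrays.

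miRNAs of other cell types were checked as well. Of 5 stromal miRNAs, 4 were detected on both arrays (miR-145a-5p was not), with log2 differences from 0.03 for miR-199a-3p to 1.20 for miR-214-3p, which was over 2-fold higher in hypoxia. The signals of their brightest probes before normalization summed to 764 in normoxia and 757 in hypoxia, of which miR-199a-3p made up 548 and 464. Of 8 blood cell miRNAs, 3 were detected in normoxia and 1 in hypoxia, with a summed signal before normalization of 511.5 and 39.1. Most of both sums was miR-451a, which red blood cells make, at 448 and 26.5, with a log2 difference of -3.66. The liver miRNA miR-122-5p read 78.5 and 7.04, and the endothelial pair, of which miR-126a-3p was detected in normoxia, summed to 24.4 and 4.18. miR-221, miR-222 and the miR-181 family are also made by blood and endothelial cells, and the part of such RNA in their values was not tested.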

How the data were processed

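Per the file headers, the authors extracted both 1-colour arrays with Feature Extraction 11.5.1.1, and the deposited processed signal is a background-subtracted linear intensity without normalization between arrays. The deposited value table was identical to it (largest difference 0). The study's methods name Agilent's miRNA labelling kit, whereas the labels describe reverse transcription from a DNA primer. Control spots were not used, nor were spots that carried 1 or more of the 4 outlier flags, the 4415 probe means were quantile-normalized, and log2 differences were averaged over probes detected on both arrays. A member detected on 1 array got a bound. The files give no replicate arrays, which limits the precision. Alternatives were other scalings, background correction (normexp in limma 3.58.1, R 4.3.3, offset 50), filters and probe summaries. The code was tested on simulated data. Sequences and coordinates are from RefSeq (GRCm38.p6); the array design names mm9. The members and lists were chosen with earlier results of these data known. Beside the members, the text names their opposite arms, miRNAs with the same seeds, the 3 nearest patterns, miR-210-3p and fixed comparison and marker lists.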

Additional observations from a re-analysis of the deposited data

How the results depend on the processing

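Neither miR-221-3p nor miR-222-3p was 2-fold apart under any of the 13 alternatives, nor were the further members that 2 of those alternatives could compare. Some of the 13 could not differ for this pair. The stricter detection rule and the lack of a filter left both at 0.077 and 0.28. A run on the deposited value table, which repeated the main input, gave the same values and is no separate check. In the unfiltered run, probes under the floor of each array were set to it and could not be 2-fold apart. The median log2 difference of miR-221-3p and miR-222-3p, 0.18 after quantile normalization, was 0.81 with the 75th percentile of all probes, 0.35 with the labelling spike-ins, 0.0033 with the hybridization spike-ins and -0.12 without normalization. These scalings moved the median of all measured miRNAs too, by 0.49, 0.04, -0.31 and -0.44. Without a filter on dim probes the median of this family was 0.36 over 4 arms, which include both 5p arms set to the floor of each array. The software's call put 4 members above background in normoxia, against 2 by the rule used here, since it added miR-181c-5p and miR-181d-5p. miR-221-3p changed sign without normalization (-0.22) and with the hybridization spike-ins (-0.10), stood at -0.0088 in the software's summed signal and at 0 on its brightest probe. miR-222-3p changed sign only without normalization (-0.019). The log2 bound of miR-181d-5p ran from 0.23 to 1.16 over 10 alternatives. Without a filter, all 4 miR-181 arms gave 0.39 to 0.61 around a median of 0.43, the median of all 1881 miRNAs, so for miR-181c-5p the sign was opposite to its measured means because the floor after normalization was 12.0 in normoxia and 16.1 in hypoxia. With a single array in each group, neither pairing nor leaving out a replicate could be tried. Alternatives on the same arrays say nothing about variation between cultures.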
